A study of Pimephales promelas with 15 samples.

Results

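The 200 probes described here are the brightest of control male liver on a one-colour Agilent array for the fathead minnow (Pimephales promelas). They were chosen from 15208 non-control probes, of which they make up 1.32%, by the highest mean level over the 3 control arrays. A level is log2 of the processed spot intensity minus the 75th percentile of that array, so 0 marks a probe at the percentile and each step of 1 is a 2-fold difference. The control arrays themselves chose the members, so comparisons with control are given as descriptions, with no test. Tests were run only between the exposed groups, which the choice did not use.

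Mature males were held for 48 h in 1 of 4 waters, and 1 liver was hybridised per array. Controls (n = 3) were kept in dechlorinated, carbon-filtered tap water. Stormwater fish (n = 4) received lake water, streamwater fish (n = 4) received surface water taken below a wastewater treatment plant, and wastewater fish (n = 4) received treated effluent of the kind used for irrigation. All groups shared 40 L aquaria holding 25 L, 4 aquaria per water and 4 fish per aquarium, went unfed, and carried no genetic change that the labels name. The fish behind the arrays are not tied to aquaria in the labels, so a p-value here measures how single fish vary, and fish of a group may share a tank. Each effluent was also 1 collection, so a water and its collection cannot be told apart.

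The liver of a fish, as of a mammal, secretes most plasma proteins, stores and releases glycogen and lipid, and clears foreign compounds. A small set of its transcripts, those of apolipoproteins, transferrin, fibrinogen chains, protease inhibitors and complement proteins among them, takes up a large part of its messenger RNA. In egg-laying vertebrates oestrogens add vitellogenin, the egg yolk precursor, which males normally make little of. Such background could not be tied to the probes. None of the sequence names on the array (0 of 15208) matched the gene table of the species, so the members are given by probe identifier, and neither gene lists nor markers of hepatocytes, exocrine pancreas, blood or other cells could be read. The rule ranks probes by brightness, and a brighter probe need not report a more abundant transcript.

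Brightness alone placed the members far above the rest of the array. Control means ran from 8.34 for UF_Ppr_AF_102718 (325-fold over the percentile) through a median of 6.98 down to 5.83 for UF_Ppr_AF_118969 (56.8-fold), while the median over all non-control probes was -2.43. The edge of the set was gradual: the first probe outside, UF_Ppr_AF_114930, had a control mean of 5.81. All 200 were well above background on all 15 arrays, and none of their spots was marked as an outlier. The 75th percentile lay between 1393 and 3981 intensity units, and 58.5% to 77.1% of probes were well above background per array. At this brightness, 2595 of 2600 member spots on 13 arrays were read from the scanner's low-gain scan and scaled up. On stormwater replicate 2 and streamwater replicate 4 only 142 and 131 of the 200 were, against 200 on each control. Some differences of these 2 arrays from control thus compare readings of different scans. Of 3000 member spots, 43, from 22 members, were saturated, 21 of them on stormwater 1.

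Earlier results from these data set apart stormwater replicate 2 and streamwater replicate 4, called below by these names, and the members separated them too. Values are therefore given with and without them, and "the other 10" stands for the remaining exposed livers. The pair came from different waters and lay on different slides, stormwater 2 on slide 1 and streamwater 4 on slide 2. Stormwater 2 had the highest 75th percentile of the series, 3981 intensity units, whereas streamwater 4, at 2158, lay within the range of the others (1393 to 2697).

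At the 75th percentile scaling, which leaves each array's shares as scanned, the 200 members held about the same part of the summed signal in 13 of the 15 livers. The share was 54.6%, 51.5% and 56.6% in the 3 controls. It was 55.1%, 31.5%, 50.2% and 52.2% in stormwater 1 to 4. It was 55.4%, 51.0%, 55.4% and 37.7% in streamwater 1 to 4, and 53.7%, 55.0%, 55.9% and 56.0% in wastewater 1 to 4. Outside stormwater 2 and streamwater 4 every liver lay between 50.2% and 56.6%, and the groups overlapped. After quantile normalization stormwater 2 and streamwater 4 were at 38.1% and 39.4%, below the others (51.9% to 54.0%). In the authors' values they were at 49.5% and 51.0%, against 50.8% to 53.9% in the others, so stormwater 2 was still the lowest but streamwater 4 lay within the range of the others. No probe dominated: UF_Ppr_AF_102718 held 0.615% to 0.641% of the signal in controls, and the first 10 members together 5.30% to 5.76%.

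**Figure D1:**
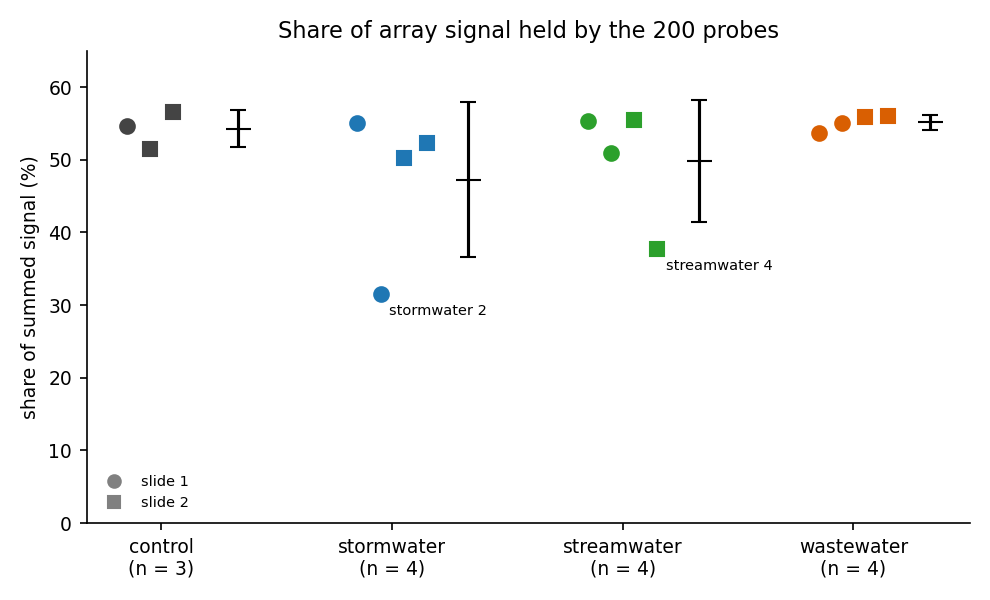
Share of the summed linear signal of all non-control probes held by the 200 members (vertical axis, %), 1 point per liver, by water; circles are slide 1, squares slide 2, and the black bar is the mean ± SD. Stormwater 2 (31.5%) and streamwater 4 (37.7%) sit below the 13 others, which lie between 50.2% and 56.6%; in the authors' values, not plotted, they are at 49.5% and 51.0%.

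The mean share was 54.3% ± 2.57 (SD, n = 3) in control, 47.3% ± 10.7 (n = 4) in stormwater, 49.9% ± 8.37 (n = 4) in streamwater and 55.2% ± 1.06 (n = 4) in wastewater. Without the 2 livers the means were 52.5% ± 2.47 (n = 3) in stormwater and 53.9% ± 2.55 (n = 3) in streamwater. Stormwater was 7.91 percentage points below wastewater (exact two-sided permutation test, p = 0.0857, adjusted over the 3 pairs p = 0.257, n = 4 and 4). Streamwater was 5.31 points below wastewater (exact permutation p = 0.229, adjusted p = 0.343), and stormwater 2.59 points below streamwater (exact permutation p = 0.571, adjusted p = 0.571). With 4 and 4 livers the smallest p this permutation test can give is 0.0286, before adjustment. A single pair at that p would not pass the threshold after adjustment over the 3 pairs, so the adjusted values do not decide whether the waters differ. All 3 differences were smaller than the SDs of stormwater and streamwater, but those fell to 2.47 and 2.55 without the 2 livers. Both differences from wastewater exceeded the wastewater SD of 1.06. The difference of stormwater from streamwater turned to 2.65 points above without stormwater 2. It was -9.85 points within slide 1, which held stormwater 2, and 4.66 points within slide 2, which held streamwater 4. On both slides stormwater lay below wastewater, by -11.1 and -4.75 points, and so did streamwater, by -1.21 and -9.41 points. The size depended on scaling: the differences of stormwater and streamwater from wastewater were -3.88 and -3.57 points after quantile normalization and -0.97 and -0.12 points in the authors' values.

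Which probes were brightest was also largely the same from liver to liver. The 3 controls kept 188, 177 and 187 of the members in their own first 200. These arrays chose the members, so their counts are high in part by the rule and set no benchmark for the exposed livers. Stormwater 1, 3 and 4 kept 176, 169 and 178, streamwater 1 to 3 kept 179, 170 and 179, and the 4 wastewater livers kept 181, 176, 184 and 173. Stormwater 2 and streamwater 4 kept 110 each. In all, 136 members stood in the first 200 of each of the other 10 livers, 191 in the first 400 of each, and 2 in the first 200 of none.

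Without the pair set apart, levels of the members varied less between livers than those of most probes. Their median SD was 0.28 over the 3 controls and 0.30 over the other 10 exposed livers, against 0.41 and 0.58 for the 11640 probes tested. Of the 200, 6 (3%) had an SD above 1 over the other 10, against 18.4% of all probes tested. After quantile normalization the medians over the other 10 were 0.24 and 0.54. The 3 control arrays chose the members, and the probes tested include dim ones that as few as 3 arrays read well above background. Whether other probes of like brightness vary as little was not tested. Variation grew toward the lower edge of the set, with a median SD of 0.25 for ranks 1 to 50 and 0.42 for ranks 151 to 200. How far the members moved together depended on scaling. Their median level spanned 0.71 over the 13 livers at the 75th percentile scaling, 0.72 with no scaling and 0.30 in the authors' values. It spanned 0.05 after quantile normalization, which gives all arrays the same distribution and so holds this median nearly fixed.

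The 6 members with the smallest SD over the other 10 exposed livers had SDs of 0.15 to 0.17. UF_Ppr_AF_115258 was 7.32, 6.87 and 7.64 in controls and between 7.12 and 7.56 in the other 10. UF_Ppr_AF_114502 was 7.61, 7.63 and 7.53 in controls. UF_Ppr_AF_106940, UF_Ppr_AF_102496, UF_Ppr_AF_113373 and UF_Ppr_AF_114768 completed the group, with control means of 7.83, 7.07, 6.01 and 7.43. All 6 stayed within 2-fold of their control mean on stormwater 2 and streamwater 4, at 6.56 and 6.89 for UF_Ppr_AF_115258. On stormwater 2, however, each of the 6 lay below its range in the other 10.

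The third brightest probe of control liver, UF_Ppr_AF_109972, had the widest range of all. It stood at 8.23, 7.96 and 8.57 in controls. It was -0.03, 4.05, 0.97 and 7.51 in stormwater 1 to 4, 1.98, 8.00, 2.07 and 7.93 in streamwater 1 to 4, and 7.73, 7.59, 7.69 and 1.60 in wastewater 1 to 4. In 9 livers it thus lay between 7.51 and 8.57 and in 5 between -0.03 and 2.07, with stormwater 2 between them, and high and low livers occurred in every effluent. Over the 13 livers its range of 8.60 was followed at a distance by 4.16 for UF_Ppr_AF_108969, and the median member spanned 1.09. No other member followed it closely over the other 10 livers (highest Pearson r = 0.76, UF_Ppr_AF_104954). Among all probes tested, 10 had r above 0.9 with it. The closest, UF_Ppr_AF_102146 (r = 0.98, control rank 735), was 3.21, 3.26 and 3.10 in controls and -3.63, -0.03, -2.73 and 1.24 in stormwater. It was -1.23, 2.71, -1.20 and 0.49 in streamwater and 1.72, 2.31, 2.63 and -1.51 in wastewater. The same 5 livers were lowest in both probes, and stormwater 2 came next in both. These correlations rest on 10 arrays, were picked as the highest among many, and carry no p.

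**Figure D2:**
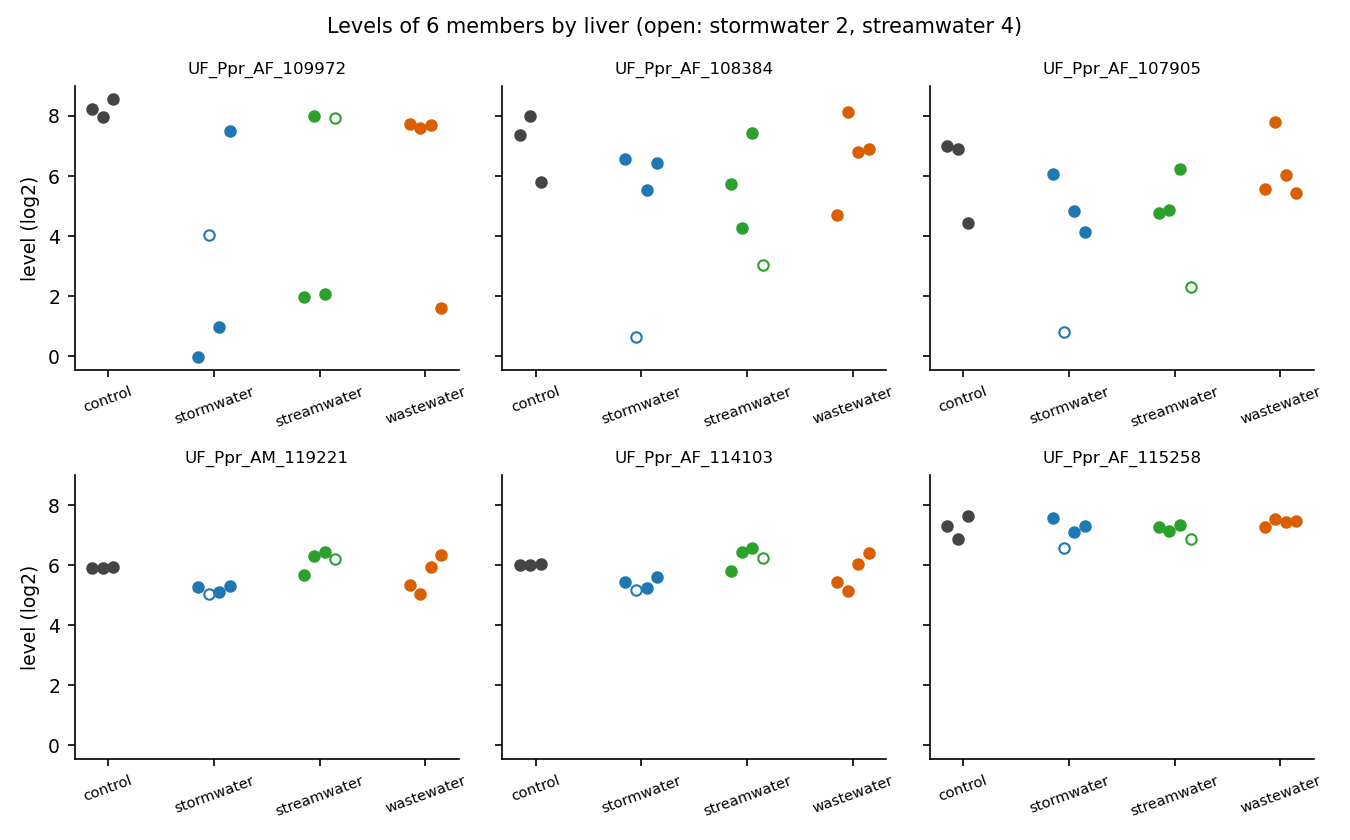
Levels of 6 members (vertical axis, log2 over the 75th percentile of the array) by water, 1 point per liver; open circles are stormwater 2 and streamwater 4. UF_Ppr_AF_109972 is high in all 3 controls and high or low in single exposed livers, with stormwater 2 in between. UF_Ppr_AF_115258 stays between 6.56, on stormwater 2, and 7.64, in control 3.

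Of the other members, UF_Ppr_AF_108384, UF_Ppr_AF_110598, UF_Ppr_AF_111380, UF_Ppr_AF_108969 and UF_Ppr_AF_107905 varied most over the other 10 exposed livers, with an SD of 1.20, 1.18, 1.14, 1.13 and 1.04. UF_Ppr_AF_108384 was 7.36, 8.00 and 5.80 in controls, 5.74, 4.27 and 7.43 in streamwater 1 to 3, and 4.70, 8.15, 6.80 and 6.88 in wastewater. UF_Ppr_AF_107905 was 7.01, 6.88 and 4.43 in controls, and 5.57, 7.81, 6.03 and 5.42 in wastewater. Over the 10 livers it was most like UF_Ppr_AF_107325 among the members (r = 0.92), and UF_Ppr_AF_110598 was most like UF_Ppr_AF_103242 (r = 0.90). UF_Ppr_AF_108969 lay between 3.01 and 7.17 over the 13 livers, and between 5.74 and 6.33 in wastewater. The widest control range, 4.79 to 7.69, belonged to UF_Ppr_AF_101612, and 32 members had a control range above 2-fold.

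On stormwater 2 and streamwater 4, one part of the members lay far below control and a larger part stayed near it. Of the 200, 62 (31%) were over 16-fold below the control mean on both livers, against 314 (2.70%) of all probes tested. This comparison uses the control levels that chose the members, so nothing is read from the excess. At over 64-fold the numbers were 32 members (16%) and 1.13% of all probes. By single array, 68 members passed 16-fold on stormwater 2 (3.26% of all probes did) and 65 on streamwater 4 (3.22%). No more than 1 did on any of the other 10 (0.069% to 0.318%), where it was UF_Ppr_AF_109972. The 62 depended on scaling: 56 members passed on both after quantile normalization, 51 with no scaling and 36 in the authors' values. Bulk tissue cannot tell fewer cells of a type from less RNA per cell.

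The 62 had a median difference from the control mean of -6.26 on stormwater 2 and -6.76 on streamwater 4. Among the 10 brightest members, UF_Ppr_AF_113208, UF_Ppr_AF_107896, UF_Ppr_AF_116961 and UF_Ppr_AF_101877 were in this class. UF_Ppr_AF_102718, UF_Ppr_AF_114707, UF_Ppr_AF_106383 and UF_Ppr_AF_109972 passed 16-fold on only 1 of the pair, and UF_Ppr_AF_109733 and UF_Ppr_AF_103403 on neither. UF_Ppr_AF_113208 was 8.23, 8.18 and 8.42 in controls and 7.40 to 8.78 in the other 10 exposed livers, but 2.03 on stormwater 2 and 1.32 on streamwater 4. UF_Ppr_AF_102718 was 8.31, 8.24 and 8.48 in controls, 4.54 on stormwater 2 and 3.10 on streamwater 4. UF_Ppr_AF_107896, UF_Ppr_AF_114707, UF_Ppr_AF_116961, UF_Ppr_AF_101877 and UF_Ppr_AF_106383 were 2.76, 3.74, 3.27, 3.85 and 4.87 on stormwater 2 and 2.58, 4.36, 2.49, 2.60 and 3.74 on streamwater 4. Against that, UF_Ppr_AF_109733 was 8.03, 7.98 and 8.24 in controls, 7.04 on stormwater 2 and 7.73 on streamwater 4. UF_Ppr_AF_103403 was 7.11 and 7.75 there.

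The lowest members relative to control were UF_Ppr_AF_101246, UF_Ppr_AF_118125, UF_Ppr_AF_110165, UF_Ppr_AF_116118, UF_Ppr_AF_103507 and UF_Ppr_AF_106045. UF_Ppr_AF_101246 was 6.63, 6.03 and 6.11 in controls, -1.73 on stormwater 2 and -2.68 on streamwater 4. In the other 10 exposed livers it lay between 4.75 and 6.34, so no liver outside the pair came near these values. UF_Ppr_AF_118969, the last probe inside the set, was 5.77, 5.68 and 6.03 in controls and -1.36 and -2.82 on the pair. All of these spots were still well above background.

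**Figure D3:**
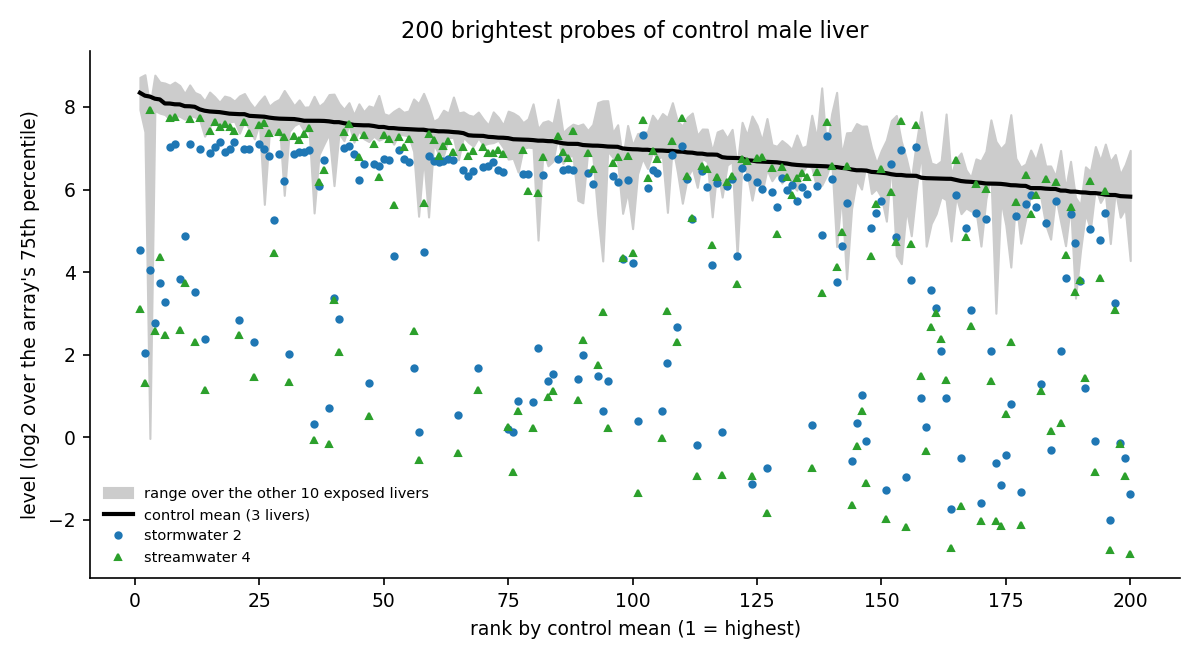
Level of each member (vertical axis, log2 over the 75th percentile of the array) against its rank by control mean (horizontal axis); the black line is the control mean of 3 livers, the grey band the range of the other 10 exposed livers, blue circles stormwater 2 and green triangles streamwater 4. The low points are spread over all ranks, and the grey dip at rank 3 is UF_Ppr_AF_109972.

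A further 110 members stayed within 4-fold of the control mean, or above it, on both livers, and 28 lay between. The 110 differed from control by a median of -0.74 on stormwater 2 and -0.30 on streamwater 4, but this direction depended on scaling. It was 0.21 and 0.23 after quantile normalization and 1.32 and 1.41 in the authors' values. The medians of the 62 were below control in each of these scalings, with values of -6.19 and -6.60 after quantile normalization and -4.41 and -5.17 in the authors' values. In the summed signal, the 62 held 15.3% to 17.3% in controls, 0.50% on stormwater 2 and 0.335% on streamwater 4. The 110 held 28.6% to 32.8% in controls and 29.6% and 35.4% on the pair.

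The 62 were found at all ranks of the set, and most often at its lower edge. Ranks 1 to 50 held 14 of them, ranks 51 to 100 held 15, ranks 101 to 150 held 12 and ranks 151 to 200 held 21. In the other 10 exposed livers they varied more than the 110, with a median SD of 0.41 against 0.25. The 28 between did so too (0.42), and members of like rank were not compared. The highest levels on the pair relative to control belonged to UF_Ppr_AF_111806, UF_Ppr_AF_110741 and UF_Ppr_AF_111933. UF_Ppr_AF_111806 was 6.42, 6.87 and 6.39 in controls, 7.31 on stormwater 2 and 7.64 on streamwater 4, and 6.35 to 6.95 in the other 10.

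Largely the same members left the first 200 on both livers, whose fish had been held in different waters. Members were chosen by control level, and this overlap was not counted for other pairs of livers. By the ranks within each array, 90 members were outside the first 200 on each of the 2, and 86 of them (95.6% of each 90) were the same. Streamwater 4 lay below stormwater 2 in 51 of the 62. In the places that members left, 90 other probes stood in the first 200 of each liver, and 65 of them (72.2% of each 90) were the same. Their median control ranks were 458 and 448.5, and 55 and 53 of them came from outside the first 400 of control.

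**Figure D4:**
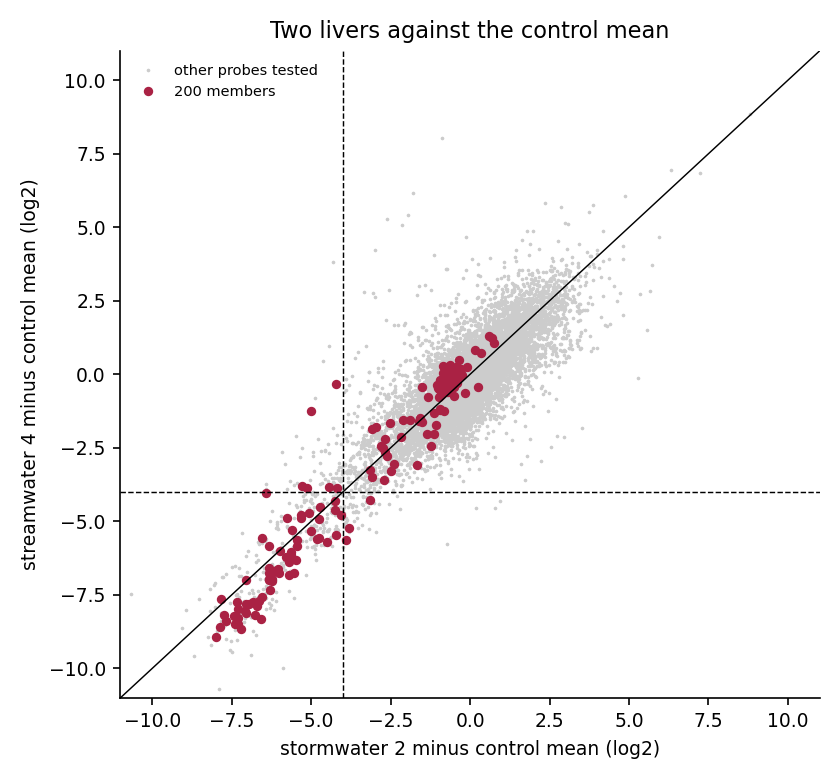
Difference from the control mean (log2) on stormwater 2 (horizontal axis) and on streamwater 4 (vertical axis) for the 200 members (red) and the other probes tested (grey); dashed lines mark 16-fold below control and the solid line equal differences. In the lower left corner lie the 62 members over 16-fold below control on both livers.

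By group mean, members lay over 2-fold below control in number only where these 2 livers entered. In stormwater 77 members (38.5%) were over 2-fold below the control mean, against 10.4% of all probes tested, and 11 (5.5%, against 8.93%) without stormwater 2. In streamwater 72 (36%, against 7.48%) were, and 7 (3.5%, against 5.61%) without streamwater 4. In wastewater 3 members (1.5%, against 6.78%) were: UF_Ppr_AF_109972, UF_Ppr_AF_110421 and UF_Ppr_AF_110221, with differences of -2.10, -1.40 and -1.30. UF_Ppr_AF_101612 alone was over 2-fold above control, by 1.08 in wastewater (1.97% of all probes) and by 1.30 in streamwater without streamwater 4 (2.52%). With all livers no member was in stormwater or streamwater (4.12% and 2.51% of all probes), nor was any in stormwater without stormwater 2 (3.24%). These names were taken after their values were seen.

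Among the effluents, no member differed at an adjusted p below 0.05 in any of the 3 comparisons (limma, Benjamini-Hochberg over 11640 probes), and neither did any other probe tested (0% each). The lowest adjusted p of a member was 0.99986 for stormwater against streamwater, 0.692 for stormwater against wastewater and 0.854 for streamwater against wastewater. The fit left room for differences: the 95% interval of a member's log2 difference reached a median of 0.82 to either side. At an unadjusted p below 0.05 stood 4 members for stormwater against streamwater (2%, against 2.04% of all probes), 10 for stormwater against wastewater (5%, against 6.64%) and 0 for streamwater against wastewater (5.85%). All 4 and all 10 were lower in stormwater, as were 1.40% and 2.09% of all probes.

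The 4 members below that threshold in stormwater against streamwater had nearly the same profile. UF_Ppr_AM_119221 was 5.29, 5.05, 5.12 and 5.31 in stormwater 1 to 4 and 5.66, 6.31, 6.44 and 6.20 in streamwater 1 to 4. Its groups did not overlap, with a log2 difference of -0.96 (SE 0.29). The 3 controls were 5.90, 5.90 and 5.94, above every stormwater liver and within the range of streamwater. Wastewater was 5.34, 5.04, 5.95 and 6.33, which spans both. UF_Ppr_AF_114103 (-0.90), UF_Ppr_AF_113805 (-0.74) and UF_Ppr_AF_109171 (-0.75) also had stormwater below streamwater without overlap. Over all probes tested 0.971% had. In other scalings the separation was mostly lost: 1 member had it after quantile normalization (0.69% of all probes), and 0 in the authors' values (0.56%) and with no scaling (0.06%). The opposite order was found in 2 members after quantile normalization (0.52%) and in 2 with no scaling (2.55%). Over the 12 exposed livers these 4 correlated with each other at r = 0.96 to 1.00, so they do not count as 4 separate observations. They carry different sequence names, and whether they read 1 transcript was not tested. Stormwater 2 and streamwater 4 lay with the other livers of their water in UF_Ppr_AM_119221.

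**Figure D5:**
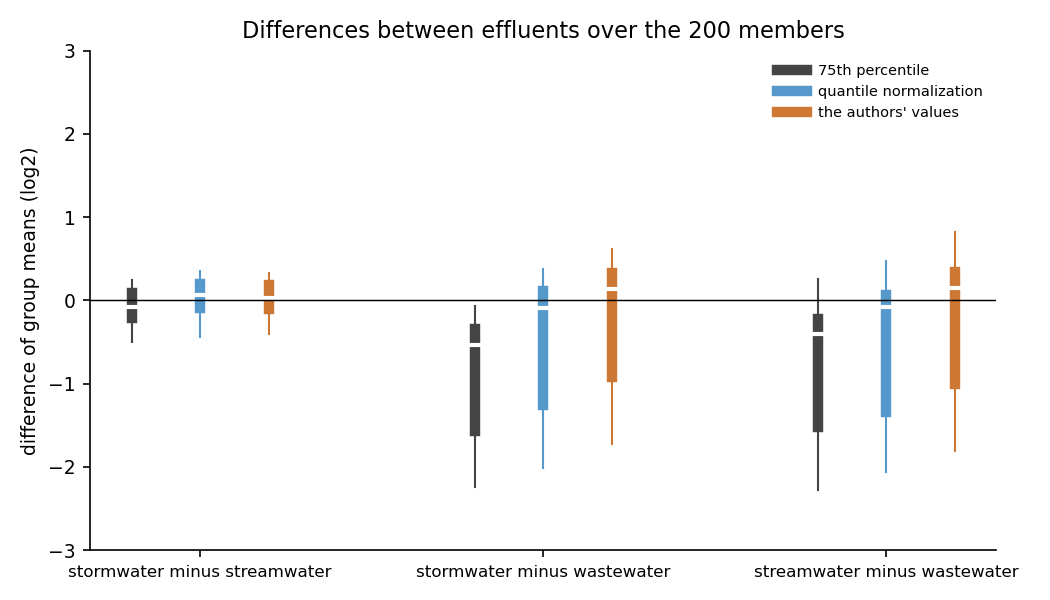
Log2 difference of group means over the 200 members (vertical axis) in the 3 comparisons of effluents, with the 75th percentile scaling, quantile normalization and the authors' values; white marks are medians, thick bars the 25th to 75th percentile and thin lines the 5th to 95th percentile of members. Medians against wastewater go from -0.53 and -0.41 to 0.14 and 0.15 with scaling, while the long lower tails stay.

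Against wastewater, stormwater was lower in most members, but this depended on scaling and on stormwater 2. The median member difference was -0.53, against -0.09 over all probes, and without both set-apart livers it was -0.23. It was -0.10 after quantile normalization and 0.14 in the authors' values. The stormwater mean was the lower one in 194 members, in 120 after quantile normalization and in 86 in the authors' values. These counts include the set-apart livers, and the share over all probes was not counted. Members also moved together, with a median r of 0.44 over pairs of members, against -0.0007 after quantile normalization. The counts are therefore not of separate observations. Every stormwater liver lay below every wastewater liver in 29 members (14.5%, against 2.28% of all probes). Under quantile normalization this held for 8 members (1.97% of all probes), in the authors' values for 9 (1.92%) and with no scaling for 1 (0.09%). UF_Ppr_AF_116431 was 7.80, 6.99, 7.69 and 7.70 in stormwater and 7.85, 8.30, 8.20 and 8.29 in wastewater (log2 difference -0.61, SE 0.25, limma adjusted p = 0.692). UF_Ppr_AF_116879 and UF_Ppr_AF_103403 differed by -0.63 each. In the authors' values all 3 lay slightly above 0. The opposite order without overlap was found in 1 member, UF_Ppr_AF_111933, with stormwater at 6.39 to 6.96 and wastewater at 5.05 to 6.15 (3.99% of all probes). That order held for 7 members after quantile normalization (4.27%), for 2 in the authors' values (4.17%) and for 2 with no scaling (9.05%).

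Against wastewater, streamwater was lower in most members, and less so without streamwater 4. The median member difference was -0.41, against 0.00 over all probes, and -0.15 without both set-apart livers. The streamwater mean was the lower one in 187 members, in 117 after quantile normalization and in 90 in the authors' values. The limits given for the stormwater counts hold for these too. Of the 3 members of lowest p, UF_Ppr_AF_102144 was 5.56, 5.45, 7.27 and 3.05 in streamwater and 7.08, 7.47, 7.28 and 7.74 in wastewater (-2.06, limma adjusted p = 0.854). UF_Ppr_AF_102727 differed by -0.49 and UF_Ppr_AF_112599 by -0.67. Streamwater lay below wastewater without overlap in 5 members (2.5%, against 1.86% of all probes): UF_Ppr_AF_113721, UF_Ppr_AF_112658, UF_Ppr_AF_106077, UF_Ppr_AF_115832 and UF_Ppr_AF_101524. At this scaling the share is close to that of all probes. The count was 2 after quantile normalization (1.97%), with 2 members the other way (1.42%), and 1 in the authors' values (1.87%). With no scaling the count was 5 (2.5%, against 0.86% of all probes), with 0 members the other way (1.51%). Stormwater and streamwater differed by a median of -0.07 over the members, as over all probes. This median ranged from -0.45 without streamwater 4 to 0.27 without stormwater 2. It was -0.55 within slide 1, which held stormwater 2, and 0.25 within slide 2, which held streamwater 4.

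The sequence names of the members shared features that the rule did not use. Names that begin with FJU and a contig number belonged to 178 members (89%) against 73.9% of all non-control probes, and gi sequence numbers to 4 (2%) against 21.8%. The median contig number was 577.5 in the members, 1412.5 in ranks 201 to 400, 3568.5 in ranks 1001 to 1200 and 5441 in all such probes. Within the members it was 276 in the 62 that were low on the pair and 840 in the 110. No source used here says what the numbers stand for. Outside the 200, the array carries for 6 members a second probe of the same name apart from an ending "ms". The second probe carries this ending, except for UF_Ppr_AM_119221, where the member carries it and the second probe does not. The control means of these second probes lay 7.36 to 12.7 below those of the members, at control ranks 3108 to 13602. That of UF_Ppr_AM_119221 was -1.45, and its levels correlated with the member at r = 0.13 over the 15 livers. That of UF_Ppr_AF_116431 was -1.71 (r = 0.57). The second probe of UF_Ppr_AF_111380 was well above background on 0 arrays.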

How the data were processed

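Liver RNA (1000 ng labelled, integrity number 8 to 9.9 per the labels' protocols) of 15 males was hybridised to 15 one-colour arrays on 2 slides. The scanner files deposited by the authors hold spot intensities from Agilent Feature Extraction, 9.5 by the submitters' processing notes and 10.1.1.1 by what the headers print; the processed signal is background-subtracted and not normalized between arrays, per the file headers. The value table deposited by the authors is on a log2 scale, and no source used here says how its columns were levelled, so it served as an alternative.

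Each array was centred: from log2 of the processed signal its 75th percentile (15208 non-control probes) was subtracted. The 11640 probes that 3 or more of the 15 arrays read well above background were fitted with limma 3.58.1 in R 4.3.3 (a mean per group, 11 residual degrees of freedom, eBayes, two-sided), with Benjamini-Hochberg adjustment and a threshold of 0.05. Outlier spots were set to missing. Shares of summed signal were compared by exact permutation tests. The fit was tested on simulated data. Figures were drawn with matplotlib 3.10.9.

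The members, the comparisons and the rule for named probes were chosen with earlier results of these data known. The rule named the 10 brightest members, the 6 most and 6 least variable over the other 10 exposed livers, the 3 of lowest p per comparison, the 6 lowest and 3 highest on the 2 livers set apart, and the last probe inside and the first outside. Others named were chosen after their values were seen. Gene lists could not be applied, since 0 sequence names matched the gene table (assembly fPimPro1.hap1.1). The number of arrays limits the precision.

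Alternatives were quantile normalization, the authors' values, normexp background correction, other filters, slide or replicate number as a block, single slides, and each array left out. Same-numbered exposed livers share a slide, whereas control 2 lay on slide 2 and the exposed livers numbered 2 on slide 1. Deviations of same-numbered livers from the group means correlated above 0.1 in all 4 pairs of stormwater and wastewater (0.13 to 0.18). In each other comparison 2 of 4 pairs did (-0.46 to 0.39 and -0.27 to 0.21). Differently numbered livers of stormwater and wastewater correlated at -0.41 to 0.48, so the numbers were only weak ground for pairing. The main tests left the livers unpaired, and the number entered as a block only in an alternative. The highest correlation of 2 arrays was 0.962, and no array was counted as a repeat of another.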

Additional observations from a re-analysis of the deposited data

Results flagged for a closer look

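Over the 39 members named by the rule and the share of summed signal, 1 liver lay far from the other 3 of its water in 28 of 120 sets of 4 livers, by the size of the gap relative to the whole range (Dixon's ratio above its 95% critical value). Chance alone gives about 5%, and the members were named in part for extreme values, so the number is no test. All 28 were levels of members. Stormwater 2 was the distant liver in 17 of these sets, streamwater 4 in 10 and wastewater 4 in 1.

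Both set-apart livers were distant in 10 members. The levels on stormwater 2 and streamwater 4 were 4.54 and 3.10 for UF_Ppr_AF_102718, 2.03 and 1.32 for UF_Ppr_AF_113208, 2.76 and 2.58 for UF_Ppr_AF_107896, 3.74 and 4.36 for UF_Ppr_AF_114707, 3.27 and 2.49 for UF_Ppr_AF_116961. They were 3.85 and 2.60 for UF_Ppr_AF_101877, 4.87 and 3.74 for UF_Ppr_AF_106383, -1.73 and -2.68 for UF_Ppr_AF_101246, -2.01 and -2.72 for UF_Ppr_AF_118125, -1.32 and -2.11 for UF_Ppr_AF_106045.

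Stormwater 2 alone was distant in its group in 7 further members, at 7.11 for UF_Ppr_AF_103403, 6.99 for UF_Ppr_AF_116431, 1.81 for UF_Ppr_AF_102144, -1.59 for UF_Ppr_AF_110165, -1.28 for UF_Ppr_AF_116118, -1.12 for UF_Ppr_AF_103507, -1.36 for UF_Ppr_AF_118969. In the 2 of these that kept a level near that of the other livers, UF_Ppr_AF_103403 and UF_Ppr_AF_116431, the other 3 stormwater livers lay at 7.80 to 7.93 and 7.69 to 7.80.

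Wastewater 4 was distant for UF_Ppr_AF_109972, at 1.60 against 7.59 to 7.73 in the other 3 wastewater livers. The level in wastewater 4 lies within the range of the 4 other low livers of this member, which came from stormwater and streamwater.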

How the results depend on the processing

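No member passed an adjusted p of 0.05 in any comparison of effluents under any of the 31 alternatives run, although other probes did in some of them, so the count of 0 speaks for these settings and this number of livers. At an unadjusted p below 0.05 the count of members ranged from 0 to 6 for stormwater against streamwater, 1 to 18 for stormwater against wastewater and 0 to 8 for streamwater against wastewater. The highest counts, 3%, 9% and 4% of the members, came with 2.04%, 9.83% and 10.9% of all probes. The share of summed signal kept its direction against wastewater in every alternative, but shrank to -0.97 points for stormwater and -0.12 for streamwater in the authors' values. For stormwater against streamwater it turned to 2.65 points without stormwater 2 (exact permutation p = 0.914). It was 4.66 points within slide 2, which held streamwater 4. With single livers left out, that difference ranged from -6.65 to 2.65 points, stormwater against wastewater from -10.5 to -2.66 and streamwater against wastewater from -7.16 to -1.26. With the authors' values, differences from wastewater turned to 0.12 for UF_Ppr_AF_116431, 0.096 for UF_Ppr_AF_116879 and 0.11 for UF_Ppr_AF_103403 in stormwater and to 0.045 for UF_Ppr_AF_102727 in streamwater, and the count of members over 16-fold below control on both set-apart livers went from 62 to 36. The cause was not tested. That count was 56 after quantile normalization, 51 with no scaling and 61 to 62 without single controls, alternatives chosen after seeing the data. With the replicate number as a block 0 members passed, as in the main fit. At an unadjusted p below 0.05 stood 4, 8 and 0 members (2.43%, 7.15% and 6.02% of all probes). For the shares, the exact permutation p within replicate numbers was 0.625, 0.25 and 0.375. With 4 pairs this test cannot give a p below 0.05, so it could not have called any difference. Saturated spots and scaling from the low-gain scan limit the brightest probes.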
